A study of Mus musculus with 2 samples.

Results

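The extracellular matrix holds proteoglycans, core proteins that carry glycosaminoglycan chains. Accessibility of chromatin was examined at 10 of their genes (Dcn, Lum, Bgn, Fmod, Ogn, Aspn, Prelp, Vcan, Acan and Prg4), taking every peak that the deposited annotation assigned to them by symbol. This rule found 20 of 63316 peaks, at 9 of the 10 genes. Aspn had 5 peaks, Dcn, Fmod and Ogn had 3 each, Vcan had 2, and Bgn, Prelp, Acan and Prg4 had 1 each. Lum had 0. The peaks came from ATAC-seq of primary murine cardiac fibroblasts, a method in which a transposase cuts accessible DNA and reads pile up where chromatin is open. Both groups received TGF-β, at 5 ng/ml for 24 h by the study's account, and are described there as transfected with scrambled siRNA (labelled NC) or with siRNA against Piezo2, a mechanosensitive ion channel (siPiezo2). The donor mice are described by neither age nor strain in the labels, and the study's strains were on a C57BL/6J background. The series' design text describes instead a Cre-driven loss of Tet3, and the groups here rest on the sample labels.

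Small leucine-rich proteoglycans bind collagen fibrils and set how they assemble. Decorin, biglycan and asporin, of class I, also bind TGF-β. Fibromodulin, lumican and Prelp form class II, and osteoglycin belongs to class III. Versican and aggrecan are large chondroitin sulfate proteoglycans that bind hyaluronan and hold water in the matrix. Prg4 encodes lubricin, a mucin-like lubricant of joints. Activated cardiac fibroblasts are a main source of this matrix in the fibrotic heart.

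There was 1 library per group, so no difference had a replicate check and no test was made. Windows of 2000 bp around all peaks held 4615335 reads in NC and 2754046 in siPiezo2, with medians of 58 and 36 reads per peak. Values are the authors' normalized read densities in reads per kb, and ratios are log2((siPiezo2 + 1)/(NC + 1)). Distances run from the start of the transcript that the table names for a peak, which for Vcan (2112 bp), the inner Dcn peaks (3728 bp), Prg4 (567 bp), Fmod (242 bp), the inner Aspn peaks (44 bp) and Bgn (21 bp) lies inside the outermost start of the gene. The 95% intervals are exact binomial (Clopper-Pearson) intervals from the reads and cover counting error only, whereas 15098 peaks called in both libraries at similar read numbers varied 1.75 times as much as counting error in variance. Under the authors' scale the median of all 63316 peaks was itself -0.13. Of 9 fibroblast markers 8 had a peak, Thy1 being the exception, and their summed density was 1116 in NC and 964 in siPiezo2. Ddr2 alone held 464 and 463 of these sums. All 8 ratios lay below 0 (62.6% of all genes), with a median of -0.40 and 3 intervals below 0 (15.8% of all genes). Peaks were also present at 3 of 7 cardiomyocyte, 6 of 7 endothelial, 2 of 6 leukocyte, 4 of 5 smooth muscle and pericyte, 4 of 4 epicardial and 0 of 4 Schwann cell markers. Their summed densities in NC and siPiezo2 were 146 and 152 for cardiomyocytes, 494 and 532 for endothelial cells, 133 and 112 for leukocytes, 316 and 228 for smooth muscle and pericytes, and 179 and 165 for the epicardium. Among defining markers without any peak were Myh6, Tnni3, Adgre1, Cd68 and Kcnj8. Within the smooth muscle and pericyte list Rgs5 went from 127 in NC to 56.0 in siPiezo2, whereas the ratios of Abcc9, Cnn1 and Myh11 were 0.095, 0.042 and -0.23. Of the endothelial list 2 of 6 lay below 0, with a median ratio of 0.057. Cdh5, at 47.7 and 78.0, made up most of the rise in that list's sum. The ratios of Emcn, Vwf, Pecam1, Tek and Kdr were 0.41, 0.11, 0.0068, -0.063 and -0.098. The part of these cell types in the results was not tested. An accessible region does not measure transcript, so the densities give no check of the Piezo2 knockdown.

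The start sites of these genes differ in base composition, and 4 promoters are shown because peaks lay on or beside their start. RefSeq sequences matched 7 of the 10 genes (Bgn, Fmod, Ogn, Aspn, Prelp, Vcan and Acan), and the 250 bases before the start were taken on assembly GRCm38.p6, chrX:73483351-73483600 for Bgn (plus strand), chr1:133921402-133921651 for Prelp (minus strand), chr13:49607765-49608014 for Ogn (plus strand) and chr13:49544193-49544442 for Aspn (plus strand). Capitals mark matches to the TEAD motif GGAATG, the RUNX motif TGTGGT and the TATA box TATAAA on either strand. AP-1 (TGANTCA) and the CArG box of SRF were searched as well.
Bgn: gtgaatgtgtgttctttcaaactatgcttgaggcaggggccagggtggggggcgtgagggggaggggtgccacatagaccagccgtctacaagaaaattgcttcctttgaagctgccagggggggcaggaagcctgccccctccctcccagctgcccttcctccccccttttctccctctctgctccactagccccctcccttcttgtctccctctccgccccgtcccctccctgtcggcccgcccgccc
Prelp: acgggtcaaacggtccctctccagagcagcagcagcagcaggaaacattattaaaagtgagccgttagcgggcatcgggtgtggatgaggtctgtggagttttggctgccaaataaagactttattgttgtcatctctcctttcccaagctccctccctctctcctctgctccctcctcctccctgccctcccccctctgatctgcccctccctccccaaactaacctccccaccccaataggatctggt
Ogn: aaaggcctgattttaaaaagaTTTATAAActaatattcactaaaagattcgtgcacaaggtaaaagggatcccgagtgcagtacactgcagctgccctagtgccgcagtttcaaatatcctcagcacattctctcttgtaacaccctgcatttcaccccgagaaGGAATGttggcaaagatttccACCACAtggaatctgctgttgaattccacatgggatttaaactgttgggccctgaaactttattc
Aspn: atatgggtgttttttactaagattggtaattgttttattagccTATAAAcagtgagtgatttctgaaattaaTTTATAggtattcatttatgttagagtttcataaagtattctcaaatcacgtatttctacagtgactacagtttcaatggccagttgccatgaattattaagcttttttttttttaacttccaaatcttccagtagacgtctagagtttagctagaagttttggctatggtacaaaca
The Bgn and Prelp windows (64.4% and 55.6% G and C) held none of the 5 motifs. Those of Ogn and Aspn are at 42% and 30%, against a median of 52.4% over 32851 mouse promoters (quartiles 45.2% and 61.2%). Ogn held a TEAD match 86 bases before its start, a RUNX match at 65 bases and 2 overlapping TATA box matches at 229 and 227 bases. Aspn held TATA box matches at 207 and 178 bases. Acan, at 74.4% the highest of the 7, held a TEAD match 12 bases before its start. Fmod (51.2%) and Vcan (62.4%) held no match. Over all promoters the TEAD motif was present in 12.6%, RUNX in 14%, the TATA box in 12.4%, AP-1 in 6.75% and the CArG box in 1.47%. Neither of the last pair was matched in any of the 7 windows. These are matches of letters only, and none of the TATA box matches lies near the start itself.

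Peak densities at the proteoglycan genes ranged from 12.9 to 45.6 in NC (median 25.7) and from 7.28 to 48.1 in siPiezo2 (median 22.2), as the plot of densities by peak shows. The ranges overlapped almost wholly. Density was lower in siPiezo2 at 15 of 20 peaks, where 63.7% of all peaks lay below 0. The median log2 ratio was -0.24 (quartiles -0.48 and -0.0094) beside -0.13 over all peaks and -0.12 over the 43864 peaks assigned to a gene. Past 1.5-fold, 4 peaks were lower in siPiezo2, beside 13.5% of all peaks, and 1 was higher, beside 3.21%. The 4 were at Aspn (2), Fmod and Ogn, and the 1 was the Dcn promoter. Counting intervals lay below 0 at 3 peaks (12.6% of all peaks) and above 0 at 1 (4.03%). Summed over the 20 peaks, density was 529 in NC and 458 in siPiezo2, from 1269 and 731 reads, a log2 ratio of -0.21 (-0.34 to -0.075), but 4 of the windows overlap an earlier window of the same gene and count shared reads again. The other 16 windows gave -0.15 (95% interval -0.29 to 0.0021), which includes 0. The shares lay near those of the whole table at every threshold.

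**Figure D1:**
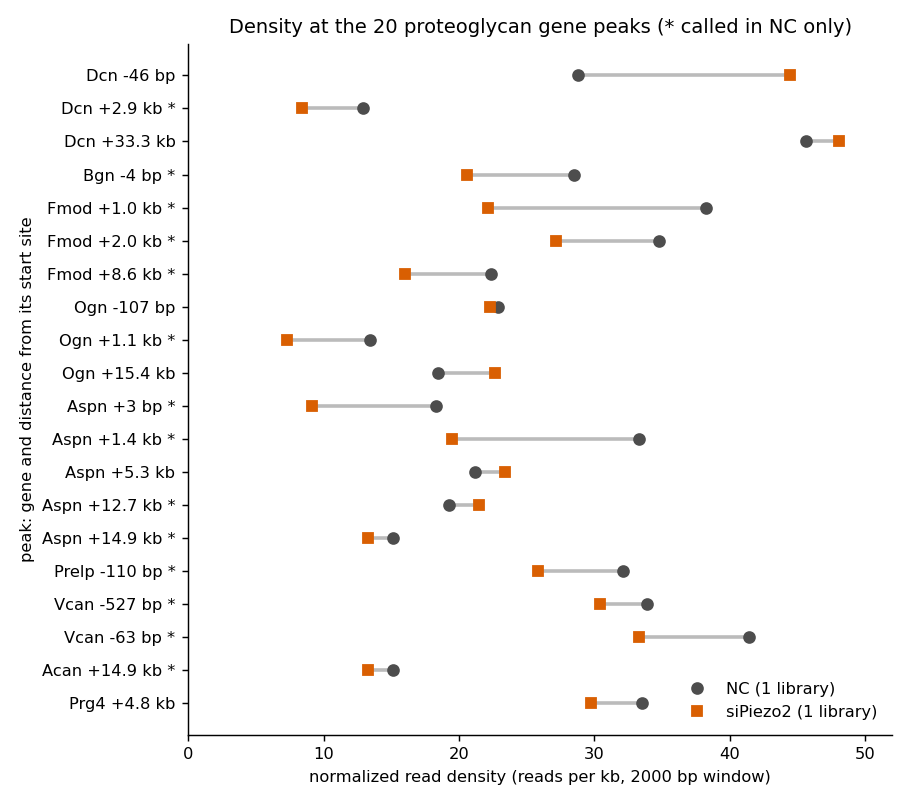
Normalized read density (horizontal axis, reads per kb) at each of the 20 proteoglycan gene peaks, named by gene and distance from the start site, with 1 circle for the NC library, 1 square for the siPiezo2 library and a line joining them; an asterisk marks peaks called in NC only. At 15 peaks the square lies to the left of the circle, and the widest gap to the right is that of the Dcn promoter.

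Dcn encodes decorin, which coats collagen fibrils and sequesters TGF-β, and was the one gene of the 9 with a higher summed density in siPiezo2. Its promoter peak (chr10:97315207-97315644, 46 bp before the start) had a density of 28.8 in NC and 44.4 in siPiezo2, from 71 and 70 reads. The log2 ratio was 0.61 (95% interval 0.13 to 1.13), the highest of the 20 peaks and at the 97.2nd percentile of all peaks. The strongest Dcn peak, in the last of 7 introns 33.3 kb after the start (chr10:97352343-97352745), stood at 45.6 and 48.1, a log2 ratio of 0.073 (-0.37 to 0.51). In intron 2 the third peak went from 12.9 in NC to 8.44 in siPiezo2 on 28 and 14 reads, with an interval of -1.65 to 0.36. The 3 peaks thus did not point one way. Over the 3 peaks the sums were 87.3 and 101, for a ratio of 0.21 (-0.096 to 0.51).

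The stretch before Dcn held 13 intergenic peaks whose nearest gene was Dcn, between 166 and 10.0 kb before its start. They are outside the rule by symbol and were looked at after their values were known. Of the 13, 10 were called in NC only (70.5% of all intergenic peaks) and so were chosen partly for a high NC value. Density was lower in siPiezo2 at 11 of the 13, where 66.3% of all intergenic peaks lay below 0, and their median log2 ratio was -0.41 against -0.18 over all intergenic peaks. Several of their windows overlap, and when each window that overlapped an earlier kept one was left out, 7 of the remaining 9 were lower, with a median of -0.30. A pair with overlapping windows, 70.2 and 69.5 kb before the start and called in NC only, had 42.9 and 43.4 in NC. In siPiezo2 the pair had 17.8 and 16.5, from 104 and 105 reads in NC against 28 and 26. Their ratios were -1.23 (-1.93 to -0.66) and -1.34 (-2.08 to -0.77), which count as 1 measurement since they share reads. At 89.7 kb the opposite was measured, 16.3 in NC and 25.6 in siPiezo2 (log2 ratio 0.62, -0.018 to 1.32). Whether any of these regions acts on Dcn was not tested.

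Bgn encodes biglycan, the X-linked relative of decorin. Its single peak covered the start site (chrX:72527116-72527334) and was called in NC only. The density was 28.5 in NC and 20.6 in siPiezo2, from 68 and 33 reads, a log2 ratio of -0.45 (-1.12 to 0.15). The promoters of Dcn and Bgn thus lay on opposite sides of 0, with intervals that meet between 0.13 and 0.15.

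Aspn encodes asporin, a class I protein that usually lacks a glycosaminoglycan chain and restrains TGF-β. Of its 5 peaks, the 2 nearest the start were lower in siPiezo2. Both were called in NC only, so they were chosen partly for a high NC value. The peak over the 5′ UTR (chr13:49697806-49698038, 3 bp after the start) had 18.3 in NC and 9.17 in siPiezo2, from 41 and 15 reads. That log2 ratio of -0.93 (-1.96 to -0.11) was the lowest of the 20 and at the 3.83rd percentile of all peaks. In intron 1, 1.38 kb after the start (chr13:49699186-49699495), the strongest Aspn peak had 33.3 and 19.5 from 80 and 31 reads, a ratio of -0.75 (-1.42 to -0.16). Their windows overlap, so these are not independent. Farther in, the densities in NC and siPiezo2 were 21.2 and 23.4 in intron 1, 19.3 and 21.5 in intron 3, and 15.1 and 13.3 in intron 5. Of these the intron 1 peak was called in both libraries and the others in NC only. Those 3 ratios ran from -0.18 to 0.15, with every interval including 0. The sums over the gene were 107 and 86.8, a ratio of -0.30 (-0.61 to -0.0021) that rests on the pair at the start. Since overlapping windows count shared reads more than once, that interval is too narrow. Leaving out the peak that overlaps an earlier window gave -0.13 (-0.49 to 0.22), which includes 0.

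Fmod encodes fibromodulin, a keratan sulfate proteoglycan that governs collagen fibril thickness. It had the lowest ratio of the 9 genes, and all of its 3 peaks were lower in siPiezo2 and called in NC only. In intron 1, 1.04 kb after the start (chr1:133966178-133966380), density was 38.2 in NC and 22.1 in siPiezo2, from 93 and 35 reads. The ratio there was -0.76 (-1.39 to -0.21). A second intron 1 peak, at 2.03 kb, had 34.8 and 27.2 (log2 ratio -0.34), and its window overlaps the first. The peak of intron 2, at 8.61 kb, had 22.4 and 16.0 (log2 ratio -0.46, -1.22 to 0.22). Summed, Fmod stood at 95.4 in NC and 65.3 in siPiezo2, a ratio of -0.54 (-0.89 to -0.21). It remained below 0 under each of 12 alternative settings (-0.65 to -0.34, leaving out unscaled reads at -1.14). Each of those settings reuses peaks called in NC only, which were chosen partly for a high NC value. The constant sign is therefore no separate check. With only peaks called in both libraries, Fmod had no value. No promoter peak was assigned to it.

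Prelp, which encodes a heparin-binding class II protein linking basement membranes to collagen, lies near Fmod on chromosome 1. Its promoter peak (chr1:133849095-133849430) had 32.1 in NC and 25.8 in siPiezo2, from 78 and 41 reads, and a ratio of -0.31 (-0.90 to 0.25). On the far side of Prelp lies Optc, the gene of opticin, whose promoter peak had 33.7 and 25.2 and whose downstream peak had 22.1 and 20.3. Other peaks of this region, not assigned to either gene, gave ratios of 0.21 (11.4 kb after the Fmod start, 21.2 in NC and 24.7 in siPiezo2) and -0.023 (19.9 kb before Prelp, 30.8 and 30.3).

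Lum encodes lumican, a keratan sulfate proteoglycan that is abundant in connective tissue. The table assigned it no peak, and none lay within 10 kb of its span (chr10:97400990-97408565). The nearest was an intergenic peak 29.2 kb before its start, at 16.4 in NC and 13.3 in siPiezo2 (log2 ratio -0.28, -1.13 to 0.50). Its neighbours Kera and Epyc, which encode keratocan and epiphycan, likewise had 0 peaks. A gene without a called peak has no value here, and how open it was cannot be read from a peak list.

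Ogn encodes osteoglycin, also called mimecan, and lies beside Aspn and Omd on chromosome 13. Its promoter peak (chr13:49761263-49761567, 107 bp before the start) had 22.9 in NC and 22.3 in siPiezo2, from 54 and 36 reads, a ratio of -0.037 (-0.69 to 0.60). In the 5′ UTR, 1.11 kb after the start (chr13:49762531-49762736), density was 13.4 and 7.28 on only 29 and 12 reads, a ratio of -0.80 (-1.99 to 0.13). The peak in the 3′ UTR (chr13:49776721-49777063) had 18.4 and 22.7, a ratio of 0.28 (-0.38 to 0.97). Peaks called in both libraries were those at the promoter and the 3′ UTR, whereas the low 5′ UTR peak was called in NC only. The sums of 54.7 and 52.2 gave -0.066 (-0.48 to 0.34), and the sign turned in 9 of 14 alternative settings. Of its neighbours, Omd (osteomodulin) had 1 intron peak at 20.8 and 14.7 (log2 ratio -0.47, -1.27 to 0.23) and Ecm2 had 0 peaks.

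Vcan encodes versican, the large hyaluronan-binding proteoglycan of the provisional matrix. The table placed both of its peaks in the promoter of a shorter transcript, 63 and 527 bp before that start, with overlapping windows. From the outermost start of the gene (89890628) they lay 2.05 and 1.58 kb inside, so neither is at the promoter of the full-length transcript. The first (chr13:89888437-89888722) had 41.4 in NC and 33.3 in siPiezo2, from 103 and 52 reads, and the ratio was -0.31 (-0.82 to 0.18). The second (chr13:89888925-89889162) had 33.9 and 30.4, from 83 and 48 reads, a ratio of -0.15 (-0.70 to 0.37). Summed, Vcan stood at 75.3 and 63.7, or -0.24 (-0.61 to 0.12). Acan, for the cartilage proteoglycan aggrecan, had 1 weak peak in the first of 16 introns (chr7:78718049-78718291) at 15.1 and 13.3, from 34 and 22 reads. Its ratio of -0.18 had the widest interval of the 9 genes, from -1.03 to 0.63, and turned to 0.11 with recovered reads at the same total. Prg4, for lubricin, had 1 peak in intron 2 of 10 (chr1:150336280-150336885), called in both libraries, at 33.5 and 29.7 and a ratio of -0.17 (-0.72 to 0.36). Differences at Vcan, Acan and Prg4 were not detectable at this depth.

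By gene, 8 of 9 ratios lay below 0, beside 62.6% of all 16934 genes with a peak. The median was -0.24 against -0.093 over all genes. Past 1.5-fold, 0 of the 9 were lower and 0 higher, beside 6.21% and 1.54% of all genes. Intervals lay below 0 for 2 of 9, Fmod and Aspn (15.8% of all genes), and above 0 for 0 of 9 (4.68%). These sums count reads shared by overlapping windows again, and with 1 of each overlapping pair left out the interval lay below 0 for 1 of 9 genes, Fmod at -0.65 (-1.12 to -0.23), beside 14.2% of all genes. In the plot of ratios by gene the intervals of neighbours in this order overlap throughout. Dividing by the median ratio of all peaks moved the median of all genes by 0.14, to 0.043. On that scale 7 of 9 members lay below 0, where 44.0% of all genes did, and their median was -0.10. Such a rescaling moves all genes by about the same amount, so the distance of the members from all genes was fixed by it. The members below the median of all genes were 7 of 9, all but Dcn and Ogn.

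**Figure D2:**
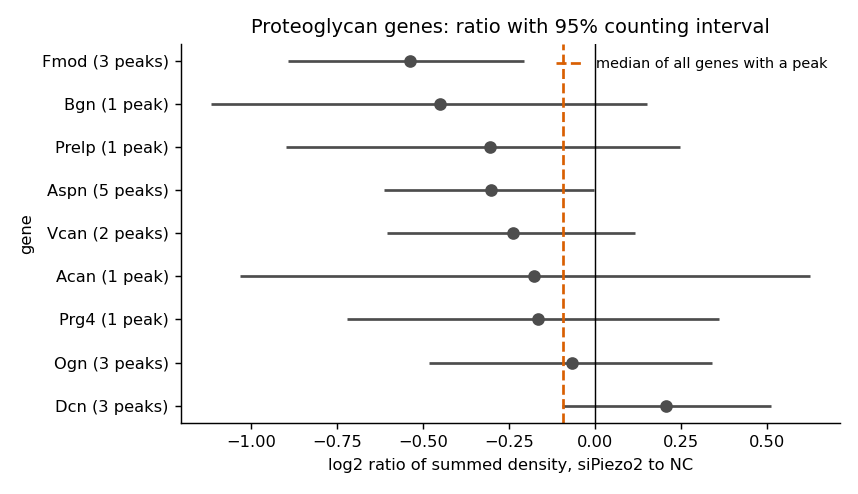
Log2 ratio of summed density (siPiezo2 to NC, horizontal axis) for the 9 proteoglycan genes with a peak; points are the ratios, lines the 95% counting intervals and the dashed line the median of all genes, -0.093. The intervals of Fmod and Aspn lie below 0, that of Aspn only while its overlapping windows are summed, and Dcn is the one gene to the right of 0.

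**Figure D3:**
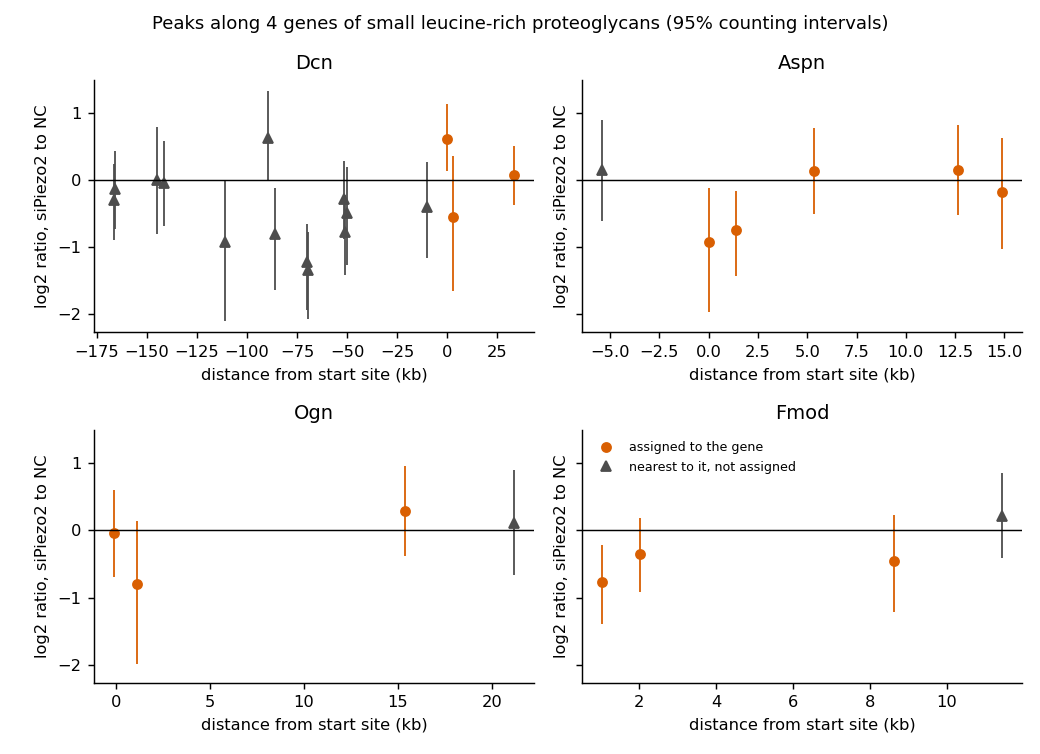
Log2 ratio (siPiezo2 to NC, vertical axis) against distance in kb from the start of the transcript named for the peak at Dcn, Aspn, Ogn and Fmod; circles are peaks assigned to the gene, triangles those nearest to it but not assigned, lines the 95% counting intervals. At Aspn the 2 peaks by the start, called in NC only, lie at -0.93 and -0.75. At Dcn the promoter, called in both libraries, lies at 0.61. The pair 70.2 and 69.5 kb upstream of Dcn, called in NC only, lies at -1.23 and -1.34.

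Ratios were also read by where the peak lay in its gene. The 6 promoter peaks within 1 kb of a start (Dcn, Bgn, Ogn, Prelp and, by the shorter transcript, 2 of Vcan) had a median of -0.23, beside -0.030 over all 9251 promoter peaks. Among the 6, 4 were called in NC only, beside 38.1% of all promoter peaks. Of these 6, 0 were lower past 1.5-fold (5.86% of all promoter peaks) and 1 was higher (1.98%), while 5 lay below 0 (53.7%). The 2 peaks of a 5′ UTR, at Aspn and Ogn, stood at -0.93 and -0.80, beside a median of -0.043 over all 2599 such peaks, and the interval of the Ogn peak includes 0. Both were weak (density percentiles 6.74 and 0.588) and called in NC only, whereas 61.3% of all 5′ UTR peaks were called in both libraries. The comparison is therefore between unlike peaks. The 11 intron peaks had a median of -0.18, beside -0.17 over all intron peaks. Members lay in promoters for 30% of their peaks and in introns for 55%, against 21.1% and 60.6% of all peaks assigned to a gene.

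Each peak call rests on the signal of its own library, so peaks called in NC only were chosen partly for a high NC value, and nothing is read from their lower ratios. The 14 peaks called in NC only (70%, beside 64.0% of all peaks) had a median of -0.40 (-0.23 over all such peaks), and 13 lay below 0, where 73.1% of all such peaks did. Past 1.5-fold, 4 of the 14 were lower (18.3% of all such peaks). The 1 of the 14 above 0 was the Aspn peak of intron 3. The 6 called in both libraries (at Dcn, Ogn, Aspn and Prg4) had a median of 0.11, and 2 lay below 0, where 49.7% of all such peaks did, and 0 were lower past 1.5-fold (5.36%). None was called in siPiezo2 only. Raw reads were fewer in siPiezo2 at all 20 peaks, as at 95.1% of the whole table, with a median log2 ratio of -0.87 against -0.72 for the whole table. The part of depth in the calls was not tested.

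Other genes of proteoglycan biology were read from 6 lists, in which 65 of 80 genes had a peak. Their median ratio was -0.16, with 49 of 65 below 0 (62.6% of all genes), intervals below 0 for 17 (15.8%) and above 0 for 2 (4.68%). Where windows of a gene overlapped and only the first was kept, 15 intervals lay below 0, beside 14.2% of all genes. The median of these genes was then -0.18, the same as that of the members. The other leucine-rich genes had a median of -0.33, and all 6 with a peak lay below 0. Tsku, for the TGF-β and BMP-binding protein tsukushi, had 123 in NC and 95.4 in siPiezo2 (log2 ratio -0.36, -0.66 to -0.077). Genes of hyaluronan synthesis and binding had a median of -0.12 over 10 genes. Has2, the main hyaluronan synthase of fibroblasts, had 105 and 84.3 (-0.31, -0.63 to -0.0069), and Bcan, for brevican, 75.0 and 79.4 (0.082, -0.26 to 0.42).

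Among 15 heparan sulfate and cell surface proteoglycans the median was -0.13. Hspg2, for perlecan of the basement membrane, had 549 in NC and 371 in siPiezo2 over 10 peaks, a ratio of -0.57 (-0.71 to -0.43). Cspg4, for the NG2 proteoglycan of pericytes, had 147 and 165 (0.16, -0.075 to 0.39). The 19 genes that build the linker and the chondroitin or dermatan sulfate chains had a median of -0.20, with 7 intervals below 0 (15.8% of all genes) and 1 above (4.68%). In the windows left when overlaps within a gene were removed, 6 lay below 0, beside 14.2% of all genes. Csgalnact1, which starts chondroitin chains, had 208 and 142 (-0.54, -0.78 to -0.32). B4galt7, for a galactosyltransferase of the linker, had 68.0 and 93.5 (0.45, 0.13 to 0.79). Keratan sulfate synthesis had a median of -0.19 over 5 genes, all below 0 (62.6% of all genes), with Chst2, a sulfotransferase, at 98.4 and 78.7. For 10 genes of proteoglycan-cleaving enzymes the median was -0.045, and 9 lay below 0. This median moved to -0.12 when overlaps within a gene were removed, from above to below the median of all genes (-0.093 and -0.092). Cemip, whose product degrades hyaluronan, had 562 in NC and 302 in siPiezo2 over 11 peaks, a ratio of -0.89 (-1.05 to -0.74). Cemip2, a relative of Cemip, had 172 and 169 (-0.023, -0.25 to 0.20). Cemip had a lower ratio than any of the 9 members, also when overlaps within a gene were removed (-0.86, -1.04 to -0.69).

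Matrix genes of other kinds gave a comparison. The 10 fibrillar collagen genes with a peak (of 11) had a median of -0.31 with all 10 below 0 (62.6% of all genes), and intervals lay below 0 for 5 (15.8%). Elastic fibre and microfibril genes had a median of -0.41 over 11 of 12 genes, with 9 below 0 and 7 intervals below 0. When overlaps within a gene were removed in the same way, the counts of intervals were again 5 and 7, and the medians -0.31 and -0.38, where the members' was -0.18 and that of all genes -0.092. Proteoglycan members thus stood, at -0.24, between the median of all genes and those of both lists in the plot of ratios by list. No test was made between the lists, and the lists differ in peaks per gene, with medians of 2 for the members, 4 for the collagens and 3 for the elastic fibre genes. Col5a2, a fibrillar collagen, had 212 in NC and 132 in siPiezo2 (-0.68, -0.92 to -0.45), and Mfap4, of the microfibrils, 104 and 64.5 (-0.68, -1.04 to -0.35).

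**Figure D4:**
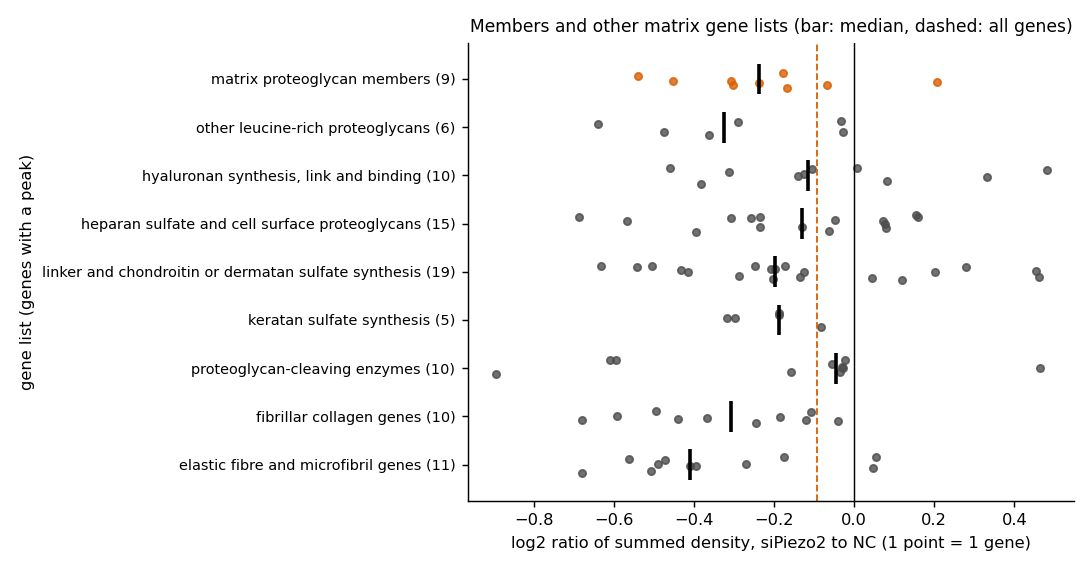
Log2 ratio of summed density (siPiezo2 to NC, horizontal axis) for each gene with a peak in 9 lists, with 1 point per gene, a bar at each list's median and a dashed line at the median of all genes, -0.093; vertical scatter within a list carries no value. The 9 members (top) have their median at -0.24, fibrillar collagens at -0.31 and elastic fibre genes at -0.41.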

How the data were processed

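The table that the authors deposited lists ATAC-seq peaks of 2 libraries, with signal columns of read density, already normalized through a straight line fitted to the log2 ratio against mean log2 density. Its log2 ratio, mean log2 density and unadjusted p-value columns, also deposited, hold the authors' own comparison and were not used. Alignment with BWA 0.7.12 to mm10 stands in the submitters' processing notes. Gene coordinates of the table are those of GRCm39, positions are given as in the table, and no sequence was read by them. The labels and the study's reagent list name 1 ATAC-seq kit, whereas its methods paragraph names another and describes minced tissue.

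Log2 ratios used a pseudocount of 1 density unit, per peak and per gene (summed over its peaks). Below 0.66 or above 1.5 of NC counted as past 1.5-fold. Whole reads were recovered from the densities, as (reads + 1)/2 before the fit, for 100% of peaks within 0.05 reads. Intervals at 95% were taken from the reads, without pseudocount, after the same scaling. No test was possible with 1 library per group. Recovery and intervals were tested on simulated data.

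All members were named, with each promoter peak, the strongest peak and those past 1.5-fold. Other genes were named as the lowest or highest of a list among genes in the upper range of density (above the median gene), or as neighbours. The members and lists were chosen with earlier results of these data known. Python 3.11.15, numpy 2.4.6, pandas 2.3.3 and scipy 1.17.1 were used.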

Additional observations from a re-analysis of the deposited data

How the results depend on the processing

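With 1 library per group, differences between cultures and between conditions cannot be told apart, and single peaks are limited by their 28 to 116 reads in NC and 12 to 74 in siPiezo2. Of 47 recomputed summaries over the members, 30 stayed within a set spread, as did 105 of 115 recomputed ratios of single genes. Medians could move as far as the interval of the summed ratio reached, and counts by 1.5-fold. For a gene the spread was its own counting interval, which is wide and can hold a turned sign. Signs turned for Ogn in 9 settings, and for Dcn, Aspn and Acan in 1 each. At genes with 1 peak several settings repeat the same value, so the 105 do not measure stability. The median over genes (-0.24) was -0.10 after median-of-ratios scaling, -0.097 after trimmed mean scaling and 0.13 with peaks called in both libraries only (4 genes). The median over peaks (-0.24) was -0.11, -0.11 and, over 6 peaks, 0.11 in the same settings, and Aspn turned to 0.14 on its 1 peak called in both. The 4 of 20 peaks lower past 1.5-fold (13.5% of all peaks) were 2 of 15 without the weakest 25% of peaks (11.9%). They were 0 of the 6 peaks called in both libraries (5.36%) and 0 of 20 at 2-fold (2.76%). The 1 higher peak was 0 at 2-fold (0.504%). Settings added after seeing the data were recovered reads, at the same total or without scaling, and peaks with separate windows. Reads at the same total gave a median over genes of -0.081. Reads without scaling gave -0.82 over genes, -0.85 over peaks, 15 lower (60.9% of all peaks) and 0 higher (0.436%). Separate windows left 2 of 15 lower (13.3% of all peaks) and no value for Vcan, whose windows both overlap an earlier one. Windows separate within each gene only, also added, left 2 of 16 lower (13.5%) and a median over genes of -0.18. There the intervals of Aspn and of the sum over all members took in 0. Causes were not tested beyond what each setting removes or rescales. No paired analysis was possible because each group had 1 library.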

Other observations

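Beside the peaks before Dcn, 12 further peaks lay nearest to a proteoglycan gene without being assigned to it, and they were looked at after their values were known. Density was lower in siPiezo2 at 6 of these 12, beside 63.7% of all peaks. The lowest ratio was in an intron of Gm4117, a gene model of unknown function, 36.9 kb before the start of Vcan (chr13:89927387-89927628), at 19.5 in NC and 5.63 in siPiezo2 from 43 and 9 reads (log2 ratio -1.63, 95% counting interval -3.02 to -0.74). That peak was weak (density percentile 3.58) and called in NC only, so it was chosen partly for a high NC value. Another peak 86.1 kb before Vcan stood at 49.9 and 53.0, a ratio of 0.085 (-0.33 to 0.50). The peak 6.80 kb before Bgn had 51.1 and 42.9 (-0.25, -0.70 to 0.19). Which gene, if any, these regions serve was not tested.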
